A study of Mus musculus with 9 samples.

Results

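The genes described here are 10 members of 3 families of growth-restraining and stress-response genes, out of 43346 genes in the deposited table: the BTG/TOB family (*Btg1*, *Btg2*, *Btg3*, *Tob1* and *Tob2*), the GADD45 family (*Gadd45a*, *Gadd45b* and *Gadd45g*) and the stress-responsive polo-like kinases *Plk2* and *Plk3*. They were found by gene name. The families were chosen by their function, but selected on these same livers, with their levels in the 9 libraries and their changes between the groups already known. All of their values below are therefore a description, and calls among them are not independent evidence. All 10 passed the expression filter and were among the 15024 genes tested.

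Whole liver of 12-week-old male C57/BL6 mice (C57BL/6J in the study's methods) was profiled by RNA-Seq in 3 groups of 3 livers. Baseline livers were the lobes removed at 70% hepatectomy from mice given normal saline (vehicle). The other livers were remnants taken 40 h after surgery, from mice given vehicle and from mice given NSC-87877 (NSC), a small molecule inhibitor of the tyrosine phosphatase SHP2 that also inhibits the related SHP1, i.p. at 7.5 mg/kg per dose. Dosing began 12 h before surgery in the sample records and 1 day before in the study's methods, so the baseline mice had also received vehicle. Lobes resected from mice given NSC are not analysed here, and both 40 h groups were set against the same 3 baseline livers. Whether a baseline lobe and a remnant came from 1 mouse is not stated, and time after surgery, surgery itself and time of day cannot be told apart in the comparisons with baseline. The livers were labelled as separate mice or specimens by replicate number only, so p-values measure the spread between these samples.

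BTG and TOB proteins bind the CAF1 deadenylase of the CCR4-NOT complex and so promote shortening of the poly(A) tail and decay of messenger RNA, and their forced expression slows entry into the cell cycle. GADD45 proteins are small acidic proteins without enzymatic activity of their own that are induced by DNA damage, growth factor withdrawal and inflammatory signals, and that bind the kinase MTK1 (*Map3k4*), the CDK inhibitor p21, PCNA and CDK1. PLK2 and PLK3 are serine/threonine kinases that are induced within the immediate early response and by stress, in contrast to the mitotic kinase PLK1. In the liver, several of these genes are known to respond quickly to partial hepatectomy, to feeding and to hormones.

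Libraries held 23997363 to 42887589 counts on genes. CPM are counts scaled to library size by TMM factors, and 3 counts, taken as the floor, were worth 0.070 to 0.125 CPM. The 10 most abundant genes took 19.0% to 29.0% of the counts. All 24 proliferation markers examined were higher at 40 h than at baseline under both treatments, and at 40 h NSC replicate 1 stood apart from the other NSC livers, with a *Ccnb1* (cyclin B1) level of 8.31 CPM against 115 and 108 CPM, a gene picked after its values were seen. On the second axis of a principal component analysis of all tested genes, NSC replicate 1 was at -31.0. The vehicle livers were at -28.1, -23.3 and -13.4 there, and NSC replicates 2 and 3 at 32.5 and 54.0. In whole liver, fewer cells of a type and less RNA per cell cannot be told apart. Hepatocyte markers, led by *Alb*, summed to 118767 to 123273 CPM at baseline, 91357 to 128653 CPM with vehicle and 95427 to 113552 CPM with NSC, and 2 of the 8 were called lower than baseline with vehicle and 4 of the 8 with NSC. Of all genes tested, 11.0% were called lower with vehicle and 16.5% with NSC.

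The 250 bases upstream of the RefSeq start site are shown for 5 of the genes, the 2 that share an uncommon 8-base motif (*Btg2* and *Plk2*), the gene that was lower with NSC than with vehicle (*Plk3*) and 2 GADD45 genes with a shared E-box and TATA motif (*Gadd45b* and *Gadd45g*). They come from RefSeq promoters of GRCm38.p6 and run 5′ to 3′ on the strand of the gene: *Btg2* chr1:134079156-134079405, minus strand, *Plk2* chr13:110394794-110395043, plus strand, *Plk3* chr4:117133964-117134213, minus strand, *Gadd45b* chr10:80929841-80930090, plus strand, and *Gadd45g* chr13:51846425-51846674, plus strand. Capitals mark the cAMP response element (CRE) TGACGTCA or its core TGACG in the first 3, and CACGTG and TATAAA in the GADD45 genes.
Btg2: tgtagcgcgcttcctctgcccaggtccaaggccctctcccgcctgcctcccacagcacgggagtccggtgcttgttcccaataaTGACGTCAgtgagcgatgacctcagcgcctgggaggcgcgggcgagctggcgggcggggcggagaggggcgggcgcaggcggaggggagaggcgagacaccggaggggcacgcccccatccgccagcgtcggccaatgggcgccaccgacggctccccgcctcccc
Plk2: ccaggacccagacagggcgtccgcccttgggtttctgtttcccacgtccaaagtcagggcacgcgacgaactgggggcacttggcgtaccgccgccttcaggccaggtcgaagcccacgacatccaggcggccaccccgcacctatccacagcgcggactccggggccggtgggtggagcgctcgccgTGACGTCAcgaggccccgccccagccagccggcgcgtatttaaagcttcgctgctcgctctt
Plk3: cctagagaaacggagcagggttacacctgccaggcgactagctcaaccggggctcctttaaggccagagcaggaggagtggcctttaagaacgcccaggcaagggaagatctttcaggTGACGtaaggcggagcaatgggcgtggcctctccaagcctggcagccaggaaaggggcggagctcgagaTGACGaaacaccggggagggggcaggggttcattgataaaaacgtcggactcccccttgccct
Gadd45b: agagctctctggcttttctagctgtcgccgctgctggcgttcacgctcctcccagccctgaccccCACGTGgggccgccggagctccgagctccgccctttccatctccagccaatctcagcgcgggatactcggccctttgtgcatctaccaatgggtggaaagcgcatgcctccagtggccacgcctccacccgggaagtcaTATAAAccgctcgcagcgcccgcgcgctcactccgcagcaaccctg
Gadd45g: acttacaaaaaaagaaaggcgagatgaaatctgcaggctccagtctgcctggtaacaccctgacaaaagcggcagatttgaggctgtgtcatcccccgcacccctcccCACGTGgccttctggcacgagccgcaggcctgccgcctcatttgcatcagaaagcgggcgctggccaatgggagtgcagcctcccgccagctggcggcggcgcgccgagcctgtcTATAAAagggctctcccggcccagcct

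Promoters of all 10 genes matched by symbol, *Btg3* with 2, and 9 motifs were searched on both strands in the 250 upstream bases of 32851 promoters. The full CRE (TGACGTCA) was found in 1.5% of all promoters and in *Btg2*, 166 bases before the start site, and *Plk2*, 62 bases before it. The core TGACG, which every full CRE also holds, was found in 17.8% of promoters and in *Btg1*, *Btg2*, *Tob1*, *Plk2* and *Plk3*, where *Plk3* had matches 132 and 63 bases before the start. The E-box CACGTG was found in 6.0% of promoters and in *Gadd45b* and *Gadd45g*, 185 and 142 bases upstream. TATAAA was found in 12.4% of promoters and in *Btg1*, *Tob1*, *Gadd45b* and *Gadd45g*, 26, 47, 46 and 27 bases upstream. The FoxO motif GTAAACA, in 3.2% of promoters, was found in *Btg1*, and the GC box GGGCGG, in 32.7%, in 9 of the genes, all but *Gadd45g*. The AP-1 motif TGANTCA (6.7% of promoters), the CArG box (1.5%) and the E2F motifs TTTGGCGC or TTTCCCGC (1.3%) matched none of the 10 within these windows. A match is a run of letters and not a measured binding site.

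From baseline to 40 h with vehicle, *Btg2* and *Btg3* were higher and *Tob2* was lower, 3 of the 10 genes with an adjusted p below 0.05 by edgeR's quasi-likelihood test (Benjamini-Hochberg adjustment over all genes). Over all genes 23.7% passed, 12.7% higher and 11.0% lower. With an absolute log2 fold change over 1.5 as well, *Btg2* and *Btg3* remained, against 7.22% of all genes. From baseline to 40 h with NSC, *Btg3* was higher and *Tob2*, *Gadd45b*, *Gadd45g* and *Plk3* were lower, 5 of the 10, where 34.7% of all genes passed, 18.2% higher and 16.5% lower. *Btg3*, *Gadd45b* and *Plk3* also passed the fold change threshold, against 8.13% of all genes. With NSC against vehicle at 40 h, *Plk3* was lower, 1 of the 10, and passed the fold change threshold too. In that comparison 0.0399% of all genes were called lower, 6 genes, none were called higher, 2929 genes had an unadjusted p under 0.05, and 0.0200% also passed the fold change threshold. The other 5 were *Cad*, *Egr2*, *Gm25745*, *Hip1r* and *Mvd*. The median log2 fold change of the 10 genes was -0.34 with vehicle and -0.62 with NSC from baseline, and -0.71 between the treatments, where the medians of all genes were 0.01, 0.01 and 0.02. Groups did not overlap for 4 of the 10 genes between vehicle and baseline (46.3% of all genes), for 5 between NSC and baseline (47.1%) and for 3 between NSC and vehicle (22.5%). These 3, *Btg2*, *Gadd45b* and *Plk3*, had all NSC livers below all vehicle livers, as did 12.2% of all genes.

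**Figure D1:**
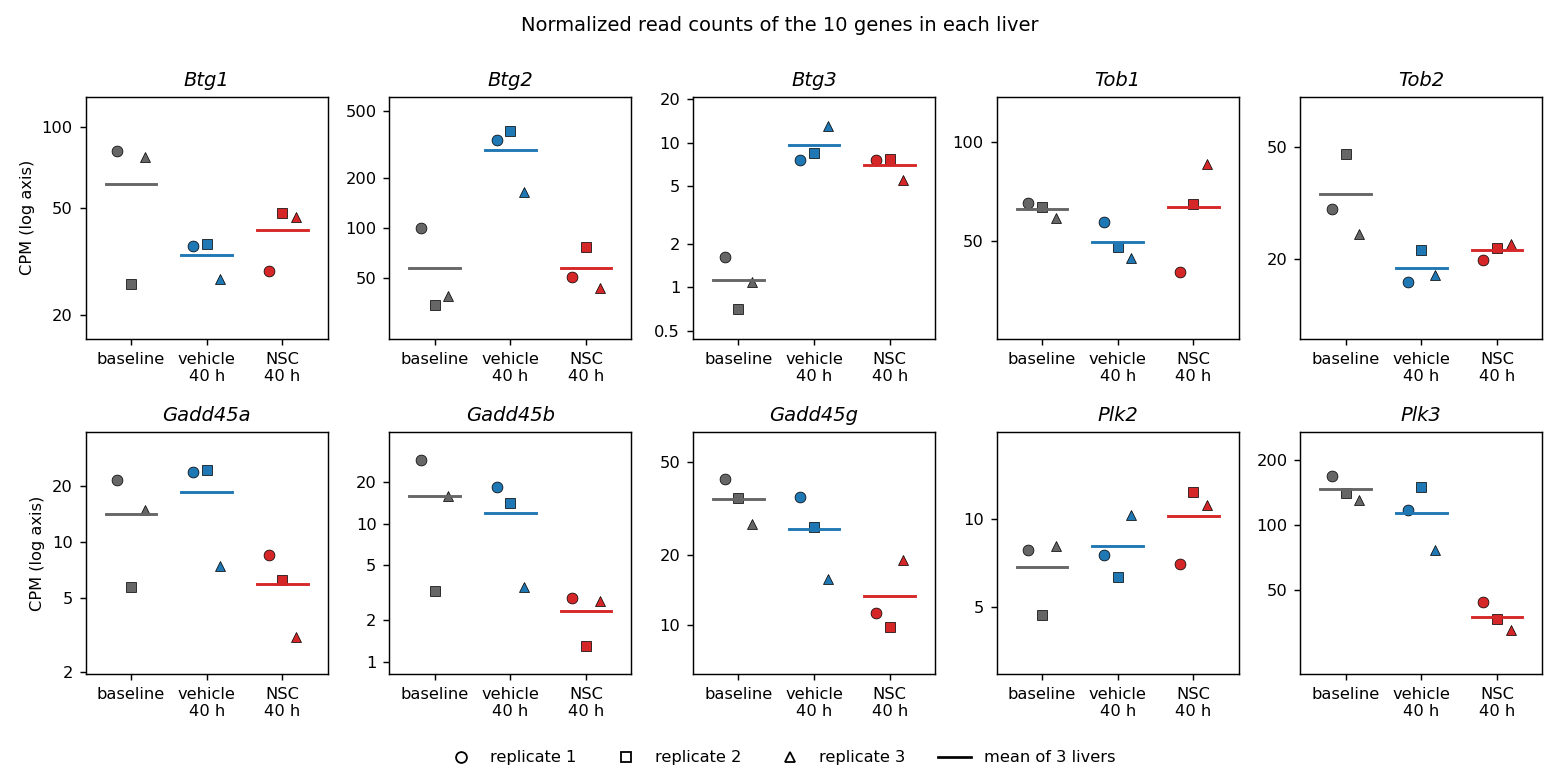
TMM-scaled CPM (log axis) of each of the 10 genes in each of the 9 livers, with 1 panel per gene, marker shape for the replicate number and a line at the mean of 3 livers. The 3 vehicle livers of Btg2 sit between 164 and 381 CPM, above all baseline and NSC livers, and the 3 NSC livers of Plk3 sit between 32.6 and 43.9 CPM, below all others.

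*Btg2* (ENSMUSG00000020423, chromosome 1, 134075170 to 134079120, minus strand) encodes a BTG protein that is at once an immediate early gene product and a p53 target. It measured 100, 34.8 and 39.1 CPM in the baseline livers, 334, 381 and 164 CPM with vehicle at 40 h, and 51.1, 77.6 and 43.6 CPM with NSC. Every vehicle liver lay above every other liver, and the NSC livers lay within the range of baseline. Baseline replicate 1 alone set the upper end of that range, and all NSC livers lay above baseline replicates 2 and 3. The vehicle level was 5.05-fold that of baseline, a log2 fold change of 2.34 (SE 0.49, adjusted p = 0.0111), and kept this call in all 18 alternatives tried. NSC against baseline gave -0.02 (SE 0.47, adjusted p = 0.985), and 0.63 without baseline replicate 1 (adjusted p = 0.213). The direct difference between the treatments was -2.35 on the log2 scale (SE 0.49), 5.11-fold lower with NSC, and did not pass after adjustment (adjusted p = 0.0905, edgeR quasi-likelihood test), whereas DESeq2 gave an adjusted p of 7.6e-06 and edgeR's likelihood ratio test 0.00117 for it.

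*Btg3* (ENSMUSG00000022863, chromosome 16, 78359860 to 78377192, minus strand), which encodes a BTG protein also known as ANA, was the lowest of the 10 at baseline, with 1.61, 0.702 and 1.09 CPM. It measured 7.63, 8.47 and 13.0 CPM with vehicle and 7.62, 7.74 and 5.56 CPM with NSC, so that all 6 remnants lay above all baseline livers. The counts behind these values were 23 to 51 reads per baseline library and 142 to 351 per remnant. *Btg3* was 8.51-fold higher with vehicle (log2 fold change 3.09, SE 0.33, adjusted p = 0.00011) and 6.14-fold higher with NSC (2.62, SE 0.32, adjusted p = 0.000185), and both calls held in all alternatives. The treatments overlapped at 40 h, with a direct log2 difference of -0.47 (SE 0.29, adjusted p = 0.382).

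*Btg1* (ENSMUSG00000036478, chromosome 10, 96617001 to 96622813, plus strand), abundant in resting cells and a known FoxO target, measured 81.1, 26.0 and 77.1 CPM at baseline, 36.2, 36.8 and 27.2 CPM with vehicle and 29.2, 48.0 and 46.4 CPM with NSC. Baseline replicate 2 lay below every other liver, and the other 2 baseline livers lay above all remnants. With all livers the log2 fold changes from baseline were -0.88 with vehicle (SE 0.39, adjusted p = 0.143, but -0.89 and 0.0436 by DESeq2) and -0.58 with NSC (SE 0.39, adjusted p = 0.287). Without baseline replicate 2 they were -1.24 (adjusted p = 0.00287) and -0.94 (adjusted p = 0.00813), both past the threshold.

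*Tob2* (ENSMUSG00000048546, chromosome 15, 81848270 to 81858326, minus strand) is a TOB protein that binds both the deadenylase and poly(A)-binding protein. It measured 30.1, 47.5 and 24.5 CPM at baseline, 16.5, 21.4 and 17.5 CPM with vehicle and 19.8, 21.8 and 22.6 CPM with NSC, with every remnant below every baseline liver. Here baseline replicate 2 was the highest liver, the reverse of its place for *Btg1*. The fall was -0.88 on the log2 scale with vehicle (SE 0.22, adjusted p = 0.0124) and -0.67 with NSC (SE 0.22, adjusted p = 0.032). Without baseline replicate 2 the latter was -0.35 and no longer passed (adjusted p = 0.158), nor did it without any single NSC replicate (adjusted p = 0.0567 to 0.0785). Without vehicle replicate 1 or 3 the fall with vehicle did not pass either (adjusted p = 0.0549 and 0.054). *Tob1* (ENSMUSG00000037573, chromosome 11, 94211454 to 94215495, plus strand), its closest relative, was nearly even at baseline, with 65.2, 63.6 and 58.6 CPM, and measured 57.0, 47.9 and 44.3 CPM with vehicle. The NSC livers spread from 40.3 through 64.8 to 85.8 CPM, on both sides of all other livers. No comparison called it (log2 fold changes -0.33 with vehicle, 0.03 with NSC and 0.35 between them, SE 0.22 each), but without NSC replicate 1, its lowest liver, it was higher with NSC than with vehicle (0.59, adjusted p = 0.0472).

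*Gadd45b* (ENSMUSG00000015312, chromosome 10, 80930091 to 80932204, plus strand), known in liver for restraining the kinase MKK7 and with it JNK signaling, varied widely among the livers of 1 group. It measured 28.9, 3.24 and 15.8 CPM at baseline and 18.4, 14.1 and 3.47 CPM with vehicle. The NSC livers, at 2.91, 1.29 and 2.74 CPM, lay below all of these, but baseline replicate 2 and vehicle replicate 3 were close to them. The log2 fold change from baseline was -2.79 with NSC (SE 0.91, adjusted p = 0.0494), a call lost in 11 of 18 alternatives (adjusted p up to 0.138, without NSC replicate 2), and -0.41 with vehicle (SE 0.82, adjusted p = 0.764). Between the treatments it was -2.38 (SE 0.90, adjusted p = 0.215).

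*Gadd45g* (ENSMUSG00000021453, chromosome 13, 51846678 to 51848468, plus strand) measured 42.2, 35.1 and 27.2 CPM at baseline, 35.6, 26.4 and 15.7 CPM with vehicle and 11.2, 9.78 and 19.0 CPM with NSC. All NSC livers were below all baseline livers, while vehicle overlapped both. It was 2.62-fold lower with NSC than at baseline (log2 fold change -1.39, SE 0.33, adjusted p = 0.00947), a call that held in all alternatives, against -0.43 with vehicle (SE 0.32, adjusted p = 0.373) and -0.96 between the treatments (SE 0.33, adjusted p = 0.166). *Gadd45a* (ENSMUSG00000036390, chromosome 6, 67035096 to 67037457, minus strand), the p53-responsive member, measured 21.8, 5.71 and 15.0 CPM at baseline, 23.8, 24.6 and 7.42 CPM with vehicle and 8.58, 6.25 and 3.09 CPM with NSC, and all groups overlapped. Its log2 fold changes were 0.39 with vehicle (SE 0.62), -1.24 with NSC (SE 0.64) and -1.63 between them (SE 0.64, adjusted p = 0.225). The 3 GADD45 genes had direct log2 differences of -0.96 to -2.38, none past the adjusted threshold. The long noncoding gene E230016M11Rik overlaps *Gadd45a* by 859 bases on the opposite strand and had 11 to 80 counts per library, where *Gadd45a* had 79 to 950. The library kit keeps strand, but the strand setting of the counting is not stated, so reads in this overlap cannot be told apart.

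*Plk3* (ENSMUSG00000028680, chromosome 4, 117128655 to 117133963, minus strand) was the gene of the 10 that differed between the treatments past the adjusted threshold. It measured 168, 140 and 130 CPM at baseline, 117, 149 and 76.3 CPM with vehicle and 43.9, 36.7 and 32.6 CPM with NSC. The NSC livers were close together and below every other liver, and the vehicle livers overlapped baseline. The level with NSC was 3.86-fold below baseline (log2 fold change -1.95, SE 0.23, adjusted p = 0.000146, held in all alternatives) and 3.03-fold below vehicle (-1.60, SE 0.23, adjusted p = 0.047), the rank of the latter being 4 among 15024 genes by p. The difference from vehicle kept its direction in all 18 alternatives and lost the adjusted threshold in 10 of them. Among these were 7 of the 9 fits without 1 library, with adjusted p-values of 0.0521 (without baseline replicate 2) to 0.21 (without NSC replicate 2), while it passed without vehicle replicate 3 or NSC replicate 1. After correction for GC content it was -1.21 (adjusted p = 0.292). *Tctex1d4*, which overlaps *Plk3* by 84 bases on the opposite strand, had 0 to 2 counts per library.

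*Plk2* (ENSMUSG00000021701, chromosome 13, 110395044 to 110400844, plus strand), is the other stress-responsive kinase of the family and holds the full CRE shown above, as *Btg2* does. It measured 7.80, 4.70 and 8.05 CPM at baseline, 7.53, 6.35 and 10.3 CPM with vehicle and 7.02, 12.4 and 11.2 CPM with NSC, and all groups overlapped. Its log2 fold changes were 0.23 with vehicle, 0.57 with NSC and 0.34 between them (SE 0.28 each), with adjusted p-values of 0.589, 0.128 and 0.507. Without NSC replicate 1 the change from baseline was 0.79 and passed (adjusted p = 0.0303).

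**Figure D2:**
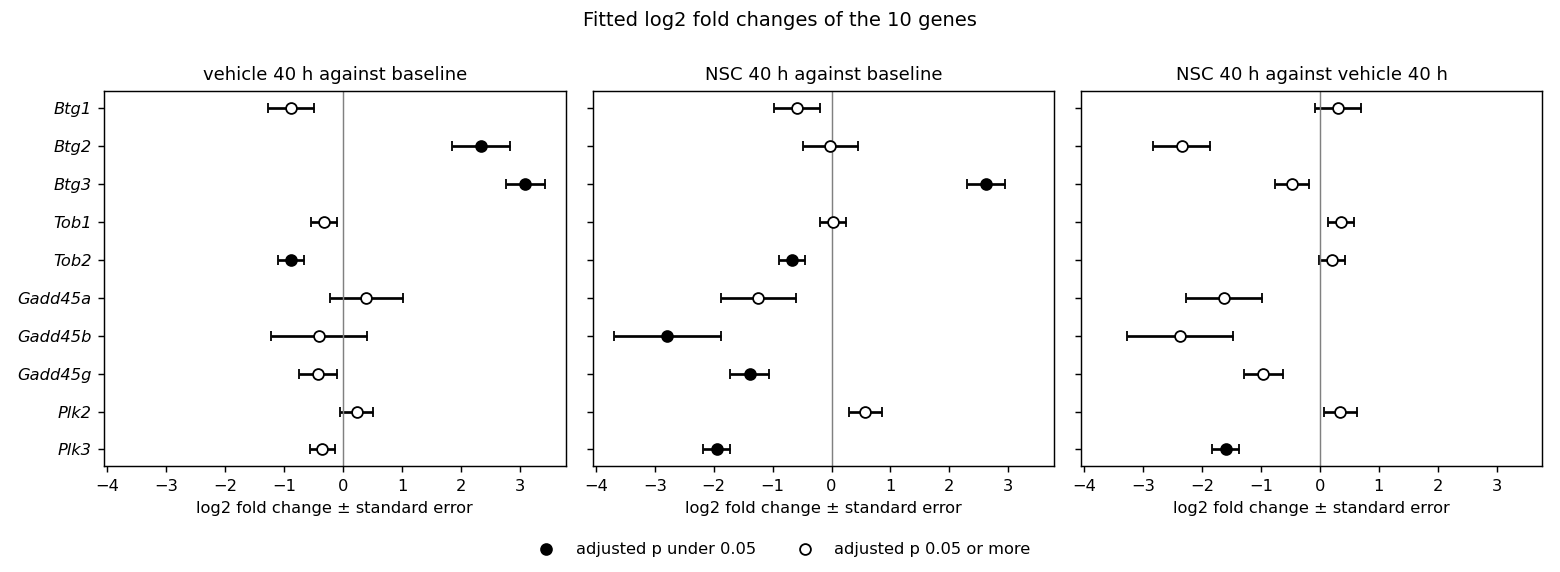
Log2 fold change with its standard error for the 10 genes in 3 comparisons, from 1 edgeR fit of all 9 libraries, with filled points for an adjusted p under 0.05. Btg2 is at 2.34 with vehicle and at -0.02 with NSC from baseline, Btg3 is at 3.09 and 2.62, and Plk3 is the filled point between the treatments, at -1.60.

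Levels of different genes were compared as FPKM, which divide by gene length. At baseline the order of the median levels was *Plk3* (53.3 FPKM), *Gadd45g* (28.8), *Tob1* (26.8), *Btg1* (15.0), *Btg2* (13.8), *Gadd45b* (12.1), *Gadd45a* (8.28), *Tob2* (7.23), *Plk2* (2.67) and *Btg3* (0.735). The ranges of *Plk3* (49.7 to 63.7 FPKM) and *Gadd45g* (22.5 to 34.5) did not overlap, nor did those of *Tob1* (24.9 to 27.3) and *Btg1* (5.01 to 15.5), of *Tob2* (5.96 to 11.5) and *Plk2* (1.62 to 2.79), or of *Plk2* and *Btg3* (0.471 to 1.07). The ranges of the other neighbours overlapped. With vehicle at 40 h *Btg2* was first at 125 FPKM (58.0 to 128), with *Plk3* second at 48.9 FPKM (29.2 to 53.1), below every *Btg2* value. With NSC the leading genes were *Tob1* (29.0 FPKM, 19.4 to 39.9), *Btg2* (20.5, 16.9 to 28.9) and *Plk3* (14.8, 13.7 to 19.1), each overlapping the next, and *Gadd45b* was last at 2.30 FPKM (1.04 to 2.53). Its range overlapped that of *Gadd45a*, the next above it (3.62 FPKM, 1.87 to 5.37).

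**Figure D3:**
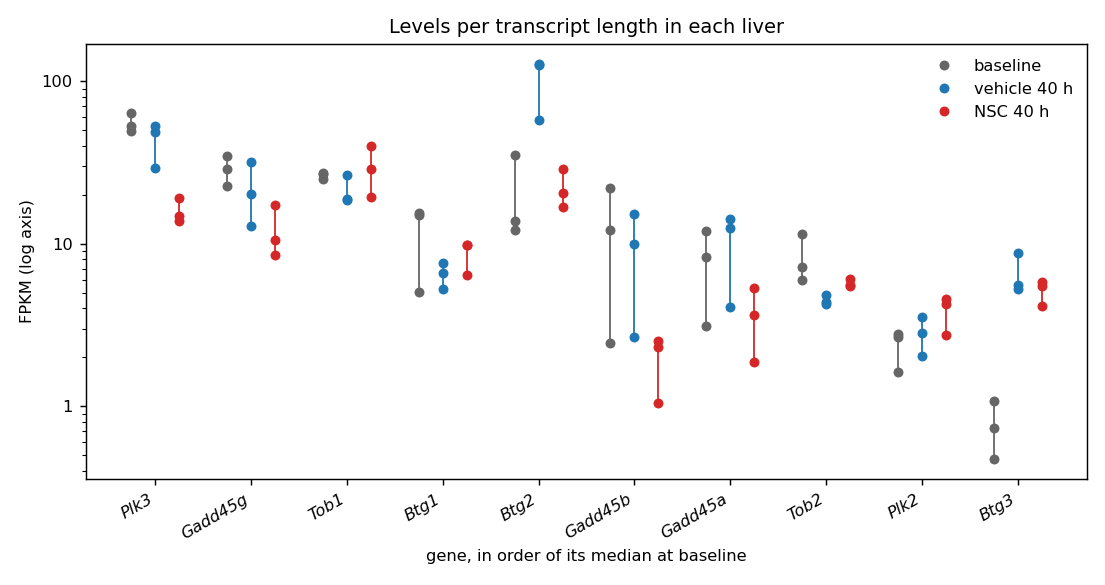
FPKM (log axis) of the 10 genes in each liver, in order of their median at baseline, with a line from the lowest to the highest of 3 livers in each group. Plk3 leads at baseline (53.3 FPKM), Btg2 with vehicle at 40 h (125 FPKM) and Tob1 with NSC (29.0 FPKM).

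The order of the livers within a group was not even. Vehicle replicate 3 was the lowest vehicle liver for 7 of the 10 genes, where it was the lowest for 39.8% of all genes, and for 23 of 26 immediate early genes. Baseline replicate 1 was the highest baseline liver for 8 of the 10 (33.0% of all genes) and for 18 of the 26 immediate early genes. Baseline replicate 2 was the lowest for 6 of the 10 (36.0% of all genes) and the highest for *Tob2*. It was also the highest baseline liver for 13 of 18 circadian clock genes, with the clock repressor gene *Cry2* at 57.9 CPM against 31.5 and 30.8 CPM. The part of the sampling time or of handling in these orders was not tested.

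By Pearson correlation of log2 CPM over the 9 livers, a description across libraries that share the same group differences, the genes most like *Btg2* were the immediate early transcription factors *Egr1* (r = 0.945) and *Fos* (r = 0.932), with *Gm17296* (r = 0.942) between them. *Fos* measured 16.6, 6.05 and 3.63 CPM at baseline, 109, 91.6 and 74.1 CPM with vehicle and 7.41, 19.0 and 17.5 CPM with NSC. The genes most like *Tob2* were *Mup-ps20* (r = 0.972), *Ciart* (r = 0.969), a repressor of the clock, and *A930033H14Rik* (r = 0.959). *Ciart* stood at 30.6 CPM in baseline replicate 2, the highest *Tob2* liver, and between 0.185 and 1.93 CPM in the other 8. For *Plk3* they were *Zswim8* (r = 0.982), *Sidt2* (r = 0.978) and *Sugp1* (r = 0.976), which had a smaller range of levels, for example 51.7 to 56.3 CPM at baseline and 26.1 to 31.0 CPM with NSC for *Zswim8*. *Gadd45b* was most like *Rnf10* (r = 0.980), the stress cytokine gene *Gdf15* (r = 0.961) and *Gtf2ird1* (r = 0.929), *Gadd45g* like the mitochondrial carrier gene *Slc25a25* (r = 0.962), *Bap1* (r = 0.957) and *Hlx* (r = 0.955), and *Btg3* like *Syt12* (r = 0.991), *Gm7334* (r = 0.989) and *Ccdc66* (r = 0.985).

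**Figure D4:**
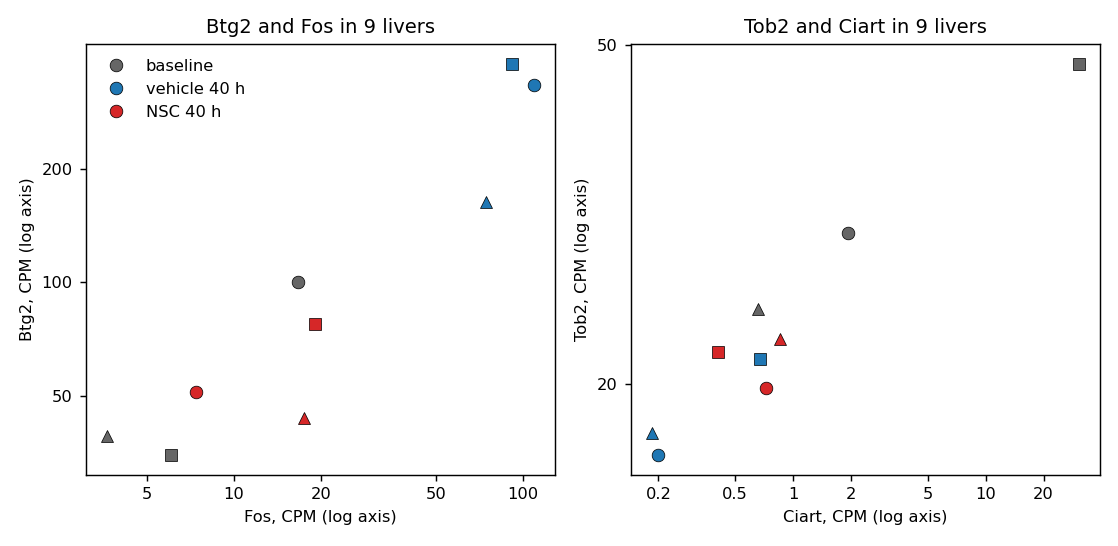
Left, CPM of Btg2 against Fos, right, CPM of Tob2 against Ciart, in each of 9 livers on log axes, colored by group with marker shape for the replicate number (circle 1, square 2, triangle 3). The 3 vehicle livers hold the highest values of Btg2 and Fos, and baseline replicate 2 alone holds the highest Tob2 (47.5 CPM) and Ciart (30.6 CPM).

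Genes that work with the 10, or share their known inducers, were followed in lists. Over all genes, 12.7% were called higher and 11.0% lower with vehicle against baseline, and 18.2% and 16.5% with NSC. Of 18 genes of the deadenylation machinery that BTG and TOB proteins recruit, 2 were higher and 1 lower with vehicle against baseline (medians 0.13 for the list and 0.01 for all genes), and 4 were higher and 2 lower with NSC (median 0.08, but -0.12 with GC correction and -0.03 without NSC replicate 2). With vehicle 1 was called without baseline replicate 2, vehicle replicate 1 or vehicle replicate 3. The catalytic subunit gene *Cnot6* had log2 fold changes of 0.54 with vehicle and 1.13 with NSC, and *Rqcd1*, the CNOT9 subunit, 0.77 and 1.02. *Tnks1bp1* was at -0.65 and -1.12. Of 18 partners of GADD45 proteins and kinases of the p38 and JNK pathways, none were higher and 1 was lower with vehicle, *Map2k6* (MKK6, a p38 kinase) at -2.84, and 4 were lower with NSC, *Map2k6* at -2.08, *Map2k7* (MKK7) at -0.62, *Mapk14* (p38α) at -0.53 and *Tet3* at -0.59. With NSC, 2 were higher and 2 lower with library size only, and 1 higher and 2 lower with GC correction. The median of this list with NSC was -0.30, and -0.16 under each of these 2 alternatives. Of the 3 other polo-like kinases tested, *Plk1* and *Plk4*, which drive mitosis and centriole duplication, had log2 fold changes of 6.20 and 4.55 with vehicle and 6.80 and 5.43 with NSC, and *Plk5* was at -1.24 and -1.59, all past the adjusted threshold. The *Plk5* call with vehicle was lost with library size only and among all genes with at least 1 count. It was also lost without any single baseline replicate, and without vehicle replicate 2 or 3. With NSC it was lost with GC correction. These kinases were not tested when at least 10 counts were required in every library.

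Among 25 p53 target genes other than the 10, 12 were higher and 5 lower with vehicle (median log2 fold change 0.35), and 10 were higher and 5 lower with NSC (median 0.52). The shares of all genes were 12.7% higher and 11.0% lower with vehicle, and 18.2% and 16.5% with NSC. With vehicle 8 were higher and 3 lower without baseline replicate 3 or vehicle replicate 1. *Eda2r* was at 3.35 and 4.29, the TRAIL receptor gene *Tnfrsf10b* at 3.11 and 3.00, and *Aen* at 1.35 and 1.05. Of 26 immediate early genes, 8 were higher and 1 lower with vehicle (median 0.66). The smallest adjusted p-values were those of *Egr2*, *Ier5* (log2 fold change 2.62), *Ier3* (3.07) and *Egr1* (2.02). With NSC 4 were higher and 3 lower (median -0.38), and 2 and 2 without baseline replicate 3. Between the treatments 22 of the 26 had a log2 fold change below 0, with a median of -1.18 against 0.02 for all genes, and 1 was called, *Egr2* at -3.33 (SE 0.44, adjusted p = 0.047), with 14 at an unadjusted p under 0.05. *Egr2* was low, with 0.0632, 0 and 0.165 CPM at baseline, 2 of these below the floor of 3 counts, 3.54 to 4.66 CPM with vehicle and 0.34 to 0.51 CPM with NSC. DESeq2 called 11 of the 26 lower, and edgeR's likelihood ratio test 10. Without NSC replicate 1, 9 of 27 were called lower, and without vehicle replicate 3, 4 of 27. The count was 0 with GC correction, with library size only, with at least 10 counts in every library (23 genes tested), and without NSC replicate 2, NSC replicate 3, vehicle replicate 1, vehicle replicate 2 or baseline replicate 1.

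Of 18 FoxO target genes, 7 were lower and none higher with vehicle (median -0.49), and 7 were lower and 1 higher with NSC (median -0.93). For these and the lists that follow, the shares of all genes were 12.7% higher and 11.0% lower with vehicle. With NSC they were 18.2% and 16.5%. The gluconeogenic gene *G6pc* was at -2.03 and -2.60, and *Foxo3* itself at -1.33 and -1.47. Of 16 genes of the integrated stress response, 4 were higher and 5 lower with vehicle (median 0.25) and 3 higher and 6 lower with NSC (median -0.13). These medians did not keep their sign, with -0.48 for vehicle when at least 10 counts were required in every library (13 genes tested), and with 0.33 for NSC after GC correction and 0.02 with library size only. With NSC the median was -1.03 under that filter and -0.75 without NSC replicate 1. The one-carbon enzyme gene *Mthfd2* was at 3.25 and 2.97 and *Ddit4* at -2.59 and -1.82. Of 14 glucocorticoid response genes, 3 were higher and 4 lower with vehicle (median -0.24) and 2 higher and 5 lower with NSC (median -0.56), with *Tat*, a liver amino acid enzyme, at -1.25 and -1.93. Without baseline replicate 2 these medians were 0.21 and 0.06, and with the replicate block that for vehicle was 0.08. With vehicle 4 were called without baseline replicate 1 or among all genes with at least 1 count, and 3 without vehicle replicate 1 or 3. Of 18 circadian clock genes, 6 were lower with vehicle (median -1.21) and 7 with NSC (median -1.42). With vehicle 3 were called without vehicle replicate 1 or among all genes with at least 1 count, 4 without baseline replicate 1, vehicle replicate 3 or NSC replicate 1, and 11 by the likelihood ratio test. With NSC 4 were called without NSC replicate 2 or 3. *Cry2* was at -1.62 and -1.76. Without baseline replicate 2 the medians of the clock genes were -0.69 and -0.60. The 24 proliferation markers were all higher, with medians of 3.96 and 4.45, and *Mcm6*, a helicase subunit, was at 3.03 and 3.42.

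Between the treatments no gene of the lists other than *Egr2* passed the edgeR quasi-likelihood test. At an unadjusted p under 0.05, as for 19.5% of all genes, there were 7 of 18 deadenylation genes, 2 of 18 GADD45 partners, 0 of 3 polo-like kinases, 4 of 25 p53 targets, 4 of 16 stress response, 5 of 18 FoxO target, 7 of 14 glucocorticoid response, 2 of 18 clock and 4 of 24 proliferation genes. DESeq2 called 2, 0, 0, 1, 3, 3, 1, 1 and 1 of them in the same order, and 5.03% of all genes. Without NSC replicate 1, 11 proliferation markers were called higher with NSC than with vehicle.

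**Figure D5:**
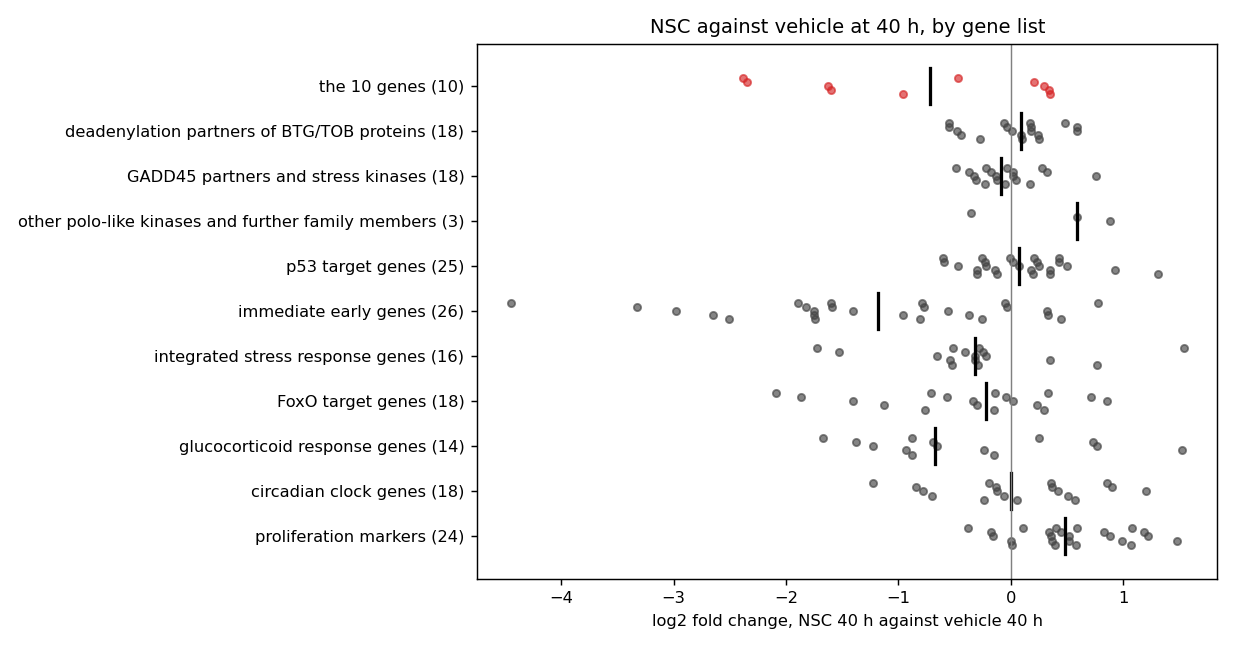
Log2 fold change of NSC against vehicle at 40 h for the 10 genes (red) and for each gene of 10 lists, with the number of genes tested in brackets and a line at the median. The medians are -0.71 for the 10 genes, -1.18 for immediate early genes and 0.48 for proliferation markers, and the 10 genes fall into 5 at -0.96 or below and 5 between -0.47 and 0.35.

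Some markers of other liver cells were also called between baseline and 40 h, and their part in the values of the 10 genes was not tested. Between the treatments the edgeR quasi-likelihood test called no marker of any cell type. The sums below include markers under the expression filter. Of the T and NK cell markers 4 of 9 were tested, and of the adipocyte and gallbladder markers 1 of 5. Summed levels of 6 B cell markers were 15.3 to 23.1 CPM at baseline, 2.18 to 12.6 CPM with vehicle and 5.17 to 7.80 CPM with NSC, and those of 9 T and NK cell markers 2.26 to 5.91, 0.951 to 1.63 and 2.31 to 3.17 CPM. Macrophage markers (9 genes) summed to 170 to 234, 147 to 272 and 252 to 402 CPM, neutrophil markers (7) to 3.85 to 11.6, 9.74 to 21 and 13.3 to 21.9 CPM, cholangiocyte markers (6) to 37.8 to 40.7, 76.0 to 115 and 79.1 to 122 CPM, and stellate cell and myofibroblast markers (8) to 186 to 222, 303 to 392 and 222 to 377 CPM. Endothelial markers (7) summed to 180 to 188, 116 to 186 and 137 to 244 CPM, erythroid markers (6) to 225 to 327, 105 to 185 and 129 to 230 CPM, and markers of adipocytes and gallbladder (5) to 5.02 to 6.03, 14.6 to 15.3 and 9.58 to 31.5 CPM. The gallbladder mucin gene *Muc5b* was at 0 in all libraries.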

How the data were processed

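Whole-liver RNA-Seq libraries (TruSeq stranded mRNA) from 9 livers in 3 groups of 3 were analysed. The authors aligned reads with STAR 2.6.1 within MAP-RSeq, summed them per gene with featureCounts of Subread 1.5.1, and deposited raw counts and FPKM per library, without pooling. Gene length is given in the same table. Recomputing FPKM from the counts and length gave a largest relative difference of 4.96e-10. The submitters' processing notes name the human build hg38, whereas the gene identifiers are mouse ones: 42462 of 43346 are in GENCODE M21 (GRCm38), 33460 of them (78.8%) at the same position. Positions are those of the deposited table.

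Counts were analysed with edgeR 4.0.16 in R 4.3.3 (TMM factors, filterByExpr, robust quasi-likelihood fit of all 9 libraries on condition only, Benjamini-Hochberg adjustment over 15024 genes). The paper names edgeR, but not its test or model. CPM are TMM-scaled, and log2 CPM used a prior count of 2. Tables were made with pandas 2.3.3 and plots with matplotlib 3.10.9 in Python 3.11.15. The 10 genes, gene lists and markers were chosen from general knowledge with earlier results of these data known. Named list genes were at most 4 per list and comparison, by smallest adjusted p, and the genes most alike the 3 with the highest correlation. Alternatives were RLE factors, library size only, 2 other filters (all genes with at least 1 count, and at least 10 counts in every library), DESeq2 1.42.0, the likelihood ratio test, a replicate block, a GC correction (loess span 0.5, GC content known for 99.2% of genes), only the 2 groups compared, and each library left out. On simulated counts for the comparison of NSC with vehicle (14814 and 14813 genes), the procedure found 99 of the 200 genes set to change 2-fold, beside 6 false calls, and 187 of the 200 set to change 4-fold, beside 17 false calls. These counts were drawn independently for each gene and library, with no shift shared by the genes of 1 liver. In the data, calls in this comparison went from 6 to 994 without NSC replicate 1, so the recovery may not carry over to these livers. Depth was 23997363 to 42887589 counts per library, and the floor of 3 counts covers counting error only.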

Additional observations from a re-analysis of the deposited data

Results flagged for a closer look

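*Plk3* was the 1 gene of the 10 called between the treatments by edgeR's quasi-likelihood test. DESeq2 and edgeR's likelihood ratio test called *Btg2* as well. Both changes from baseline use the same baseline livers. For *Plk3* their difference is therefore the comparison of NSC with vehicle given above, and not a second test. The change with NSC minus the change with vehicle was -1.60 on the log2 scale (SE 0.23, adjusted p = 0.047, edgeR quasi-likelihood test), with all 3 NSC livers (32.6 to 43.9 CPM) below all 3 vehicle livers (76.3 to 149 CPM). Its adjusted p lay between 3.98e-07 and 0.292 over the 18 alternatives.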

How the results depend on the processing

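Of 540 log2 fold changes of the 10 genes under alternatives, 492 kept their direction and side of the threshold, 30 lost the threshold, 7 passed it newly and 11 changed sign. *Btg2* with vehicle, *Btg3* with both treatments, and *Gadd45g* and *Plk3* with NSC against baseline kept their calls in all 18. *Plk3* between the treatments lost its call with library size only (-1.46, adjusted p = 0.0809), GC correction (-1.21, 0.292), only the 2 groups compared (-1.60, 0.079) and in 7 of 9 fits without 1 library, the exceptions being vehicle replicate 3 and NSC replicate 1. *Gadd45b* against baseline with vehicle was 0.34 without baseline replicate 1 and 0.03 without vehicle replicate 3 (lowest -0.89, without baseline replicate 2). *Btg2* with NSC was 0.12 with library size only, 0.06 with the replicate block, 0.03 with GC correction, and 0.63, 0.06 and 0.15 without baseline replicate 1, NSC replicate 1 and NSC replicate 3 (lowest -0.29, without NSC replicate 2). *Tob1* with NSC was -0.19 with GC correction and -0.01 and -0.25 without baseline replicate 3 and NSC replicate 3 (highest 0.27, without NSC replicate 1). The cause of these shifts was not tested. *Gadd45b* with NSC lost its call in 11 alternatives and *Tob2* with NSC in 7. *Tob2* with vehicle lost its call without vehicle replicate 1 (-0.80, adjusted p = 0.0549) or 3 (-0.84, 0.054).

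Genes called with vehicle against baseline numbered 3564 (1085 with the fold change threshold, 2285 to 4538 with 1 library left out), and 5207 with NSC (1222 with the fold change threshold, 3604 to 5234 with 1 library left out). With NSC, 5194 of 15024 genes were called with library size only, and 4361 of 14900 with GC correction. Of the 10 genes, 5 were called with NSC against baseline, and 3 with library size only, GC correction or the fold change threshold, and 3 to 5 with 1 library left out. Between the treatments 6 genes were called, but 1 with library size only, 221 among all genes with at least 1 count, 756 by DESeq2, 412 by the likelihood ratio test, 11 with the replicate block, 0 with GC correction, 3 with the fold change threshold, and 0 (without vehicle replicate 2, NSC replicate 2 or NSC replicate 3) to 994 (without NSC replicate 1) with 1 library left out. Of the 10 genes, 1 was called there, but 0 with library size only, GC correction or only the 2 groups compared, 2 by DESeq2 or the likelihood ratio test (*Btg2* and *Plk3*), and 0 to 2 with 1 library left out. Library size only moved the median log2 fold change of all genes to 0.15 with NSC against baseline and 0.14 between the treatments, and the share of calls that were higher with NSC against baseline from 52.4% to 65.4%. Deviations of same-numbered livers from their group means correlated at -0.05 to 0.13, and 2 of 3 livers correlated best with their own number in each comparison. With 3 livers per group these values cannot decide whether same-numbered livers came from 1 mouse. With the replicate block, *Gadd45b* with NSC was -2.59 (adjusted p = 0.0859). Depth limits *Btg3* at baseline most, with 23 to 51 counts.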
